A study of Mus musculus with 16 samples.

Results

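Genes of the epithelial-mesenchymal transition were followed in mouse mammary tumors: the transcription factors Snai1, Snai2, Twist1, Zeb1 and Zeb2, the mesenchymal genes Vim, Fn1 and Cdh2, and the epithelial genes Cdh1 and Epcam. The genes were chosen by name as genes of the transition, with earlier results of these data known. All 10 of 10 were found among the 27179 genes of the count table, and all 10 passed the filter on low counts, which left 16017 genes.

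In the transition, an epithelial cell loosens its cell-cell junctions and takes on a motile, matrix-producing state. Factors of the Snail, Twist and Zeb families bind E-box sequences in DNA and repress epithelial genes such as Cdh1, and TGF beta is a known inducer of these factors. Fibroblasts, endothelial cells and leukocytes of a tumor also express several mesenchymal genes, and basal mammary epithelial cells express Snai2.

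RNA was sequenced from 15 tumors, 3 in each of 5 groups, all grown from F2 transplants of a single Trp53 null mammary tumor line, family F, implanted orthotopically in BALB/cJ females aged 8 to 10 weeks. Treatment started when a tumor measured 65 to 100 mm3, and tumors were taken at day 7. Sham mice received control immunoglobulin G at 25 mg/kg. TGFbi mice were dosed each day with 20 mg/kg of IPW-5371, a compound that blocks TGF beta signaling. RT mice received 10 Gy of focal radiation, TGFbi+RT mice received both, and TGFbi+RT+anti-PD-L1 mice (the triple group) were further given 10 mg/kg of an anti-PD-L1 antibody, which blocks a checkpoint ligand, once a week. The labels number the tumors within a group without naming the mice, so a p-value measures the spread between these tumors. Since all tumors come from 1 transplant family, the spread between families was not measured.

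Total counts were 11002869 to 17184023 per tumor. Levels are given as CPM, a gene's counts relative to the size of the library after TMM (trimmed mean of M values) normalization. Some features of the libraries bear on the values. On the first principal component, which held 46.8% of the variance, 2 tumors lay apart from the rest, triple replicate 2 and TGFbi+RT replicate 3. Library names carry 2 codes, with A2304 on all RT tumors and on 2 triple tumors and A2301 on the other 10, so RT and the code are largely confounded. The names of TGFbi+RT replicate 3 and TGFbi replicate 3, both of code A2301, also carry the mark resub, so 1 of the 2 tumors that lie apart is such a library. The labelled tissue was checked by marker genes. Basal mammary markers summed to 1483 to 3727 CPM per tumor, with Krt5 at 347 to 1117 CPM and Trp63 at 292 to 1003 CPM, and no basal marker was at 0 in any tumor. Luminal markers summed to 38.9 to 309 CPM, and Krt8 was at 0.328 to 33.9 CPM.

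The E-box that Snail and Zeb factors are known to bind, CAGGTG or its reverse complement CACCTG, was searched in the 250 bases before the transcription start in the RefSeq promoter table (build GRCm38.p6), on both strands. Of 5 members searched, Epcam and Snai1 held it, and Vim, Twist1 and Zeb2 (4 start sites) did not. Cdh1, the known target named above, was not searched, nor were Snai2, Zeb1, Fn1 and Cdh2. Over 32851 windows of the same length in the table, 17.2% held it. The wider word CANNTG, which contains it, was in 66.2% of windows and in the same 2 members. The windows are shown for an epithelial gene (Epcam), a factor (Snai1) and a mesenchymal gene (Vim), with the matching word in capitals.
Epcam chr17:87635729-87635978 (+ strand): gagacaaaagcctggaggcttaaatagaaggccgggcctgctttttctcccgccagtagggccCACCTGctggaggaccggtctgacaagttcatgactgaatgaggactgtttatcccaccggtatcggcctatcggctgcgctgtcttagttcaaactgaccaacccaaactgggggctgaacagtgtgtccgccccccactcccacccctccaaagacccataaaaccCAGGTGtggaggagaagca
Snai1 chr2:167537945-167538194 (+ strand): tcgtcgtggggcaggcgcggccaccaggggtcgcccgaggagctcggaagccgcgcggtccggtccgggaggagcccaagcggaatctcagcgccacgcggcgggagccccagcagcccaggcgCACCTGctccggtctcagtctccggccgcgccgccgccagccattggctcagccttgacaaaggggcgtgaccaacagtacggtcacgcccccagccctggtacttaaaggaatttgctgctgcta
Vim chr2:13574061-13574310 (+ strand): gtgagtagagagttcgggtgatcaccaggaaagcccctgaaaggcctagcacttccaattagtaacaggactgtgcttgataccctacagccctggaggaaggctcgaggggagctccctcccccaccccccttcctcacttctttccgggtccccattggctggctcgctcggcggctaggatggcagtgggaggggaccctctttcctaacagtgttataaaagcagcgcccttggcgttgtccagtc
Epcam held 2 matches, CACCTG starting at position -187 and CAGGTG at -19, and Snai1 held CACCTG at -126, counted from the base before the start. A match is a stretch of letters, and binding was not measured.

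Per kilobase of exon, the scale on which genes can be compared, the mesenchymal genes Fn1 and Vim were the most abundant of the 10. Fn1, which encodes the matrix protein fibronectin, averaged 167 ± 109 CPM per kb (SD, n = 15 tumors). Vim, which encodes the intermediate filament vimentin, averaged 141 ± 95.7 CPM per kb, and Fn1 was above Vim in 12 of 15 tumors. The next 2 were Snai2 at 85.2 ± 22.5 and the epithelial surface gene Epcam at 72.2 ± 14.2 CPM per kb. These 4 formed an upper tier in which neighbours changed places between tumors, with Vim above Snai2 in 9 and Snai2 above Epcam in 9 of 15 tumors.

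Cdh1, the gene for E-cadherin, stood a step lower at 18.0 ± 4.93 CPM per kb, below Epcam in 15 of 15 tumors. Among the factors, Snai2 was followed by Zeb2 at 9.16 ± 8.85, Twist1 at 7.12 ± 1.71, Snai1 at 3.88 ± 2.75 and Zeb1 at 2.91 ± 1.78 CPM per kb. Snai2 exceeded Snai1 in every tumor, by 6.30 to 175.8 times per length. Cdh2, the gene for N-cadherin, was the lowest at 2.45 ± 1.56 CPM per kb. E-cadherin RNA exceeded N-cadherin RNA per length in 15 of 15 tumors, by 1.84 to 41.0 times. Zeb2 and Twist1 could not be ordered, since Zeb2 was above Twist1 in only 6 of 15 tumors while its mean was higher.

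**Figure D1:**
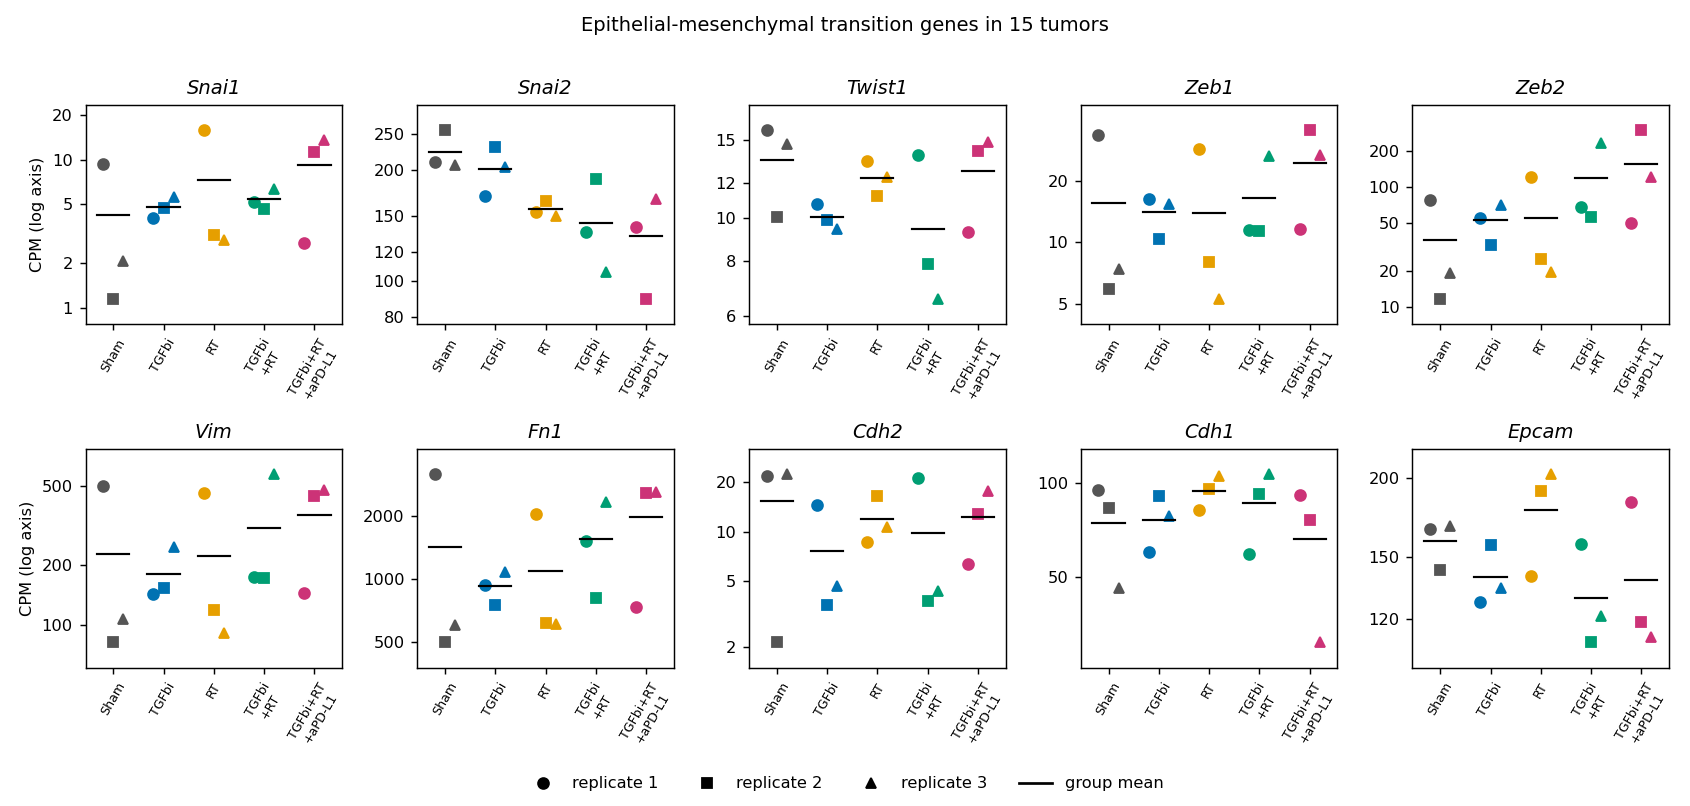
CPM of each gene in each tumor on a log axis, by treatment group, with marker shapes for replicates and a line at the group mean (aPD-L1 stands for anti-PD-L1). Snai2 in RT, TGFbi+RT and triple tumors lies below all Sham tumors, while every treated group overlaps Sham for the other 9 genes.

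The members differed widely in how much they varied between tumors. The highest tumor exceeded the lowest by 24.9 times for Zeb2, 13.8 times for Snai1 and 10.5 times for Cdh2. Vim, Zeb1 and Fn1 spanned 6.98, 6.68 and 6.37 times. Epithelial genes and the other 2 factors were steadier, at 3.46 times for Cdh1, 2.85 for Snai2, 2.40 for Twist1 and 1.84 for Epcam. Group membership accounted for 59.3% of the spread of log2 CPM for Snai2 and 11.6% to 41.3% for the other 9, against a median of 32.1% over all genes tested and 28.6% that 4 of 14 degrees of freedom alone would give.

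No member passed the threshold in any comparison. By edgeR's quasi-likelihood test with Benjamini-Hochberg adjustment over all genes, 0 of 10 had an adjusted p under 0.05 in the test for any difference among the 5 groups or in any of 10 contrasts, and DESeq2 and limma-voom also called 0. The background was as low: the share of all genes called was 0.00624% for TGFbi against Sham (1 gene), 0.0312% for the inhibitor average (TGFbi and TGFbi+RT against Sham and RT, 5 genes) and 0% for the other contrasts and the 5-group test. At an unadjusted p under 0.05, RT against Sham had 1 of 10 members (4.2% of all genes), TGFbi+RT against Sham 1 (15%), triple against Sham 2 (14.9%) and TGFbi+RT against RT 1 (9.62%). The inhibitor average had 1 (14.3%), the radiation average (RT and TGFbi+RT against Sham and TGFbi, added after the data were seen) 1 (6.12%) and the 5-group test 1 (10.8%). TGFbi against Sham (8.48%), TGFbi+RT against TGFbi (6.06%), triple against TGFbi+RT (1.99%) and the interaction of inhibitor and radiation (3.8%) had 0. The genes behind these counts were Snai2, Zeb2 and Epcam.

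Snai2, the factor known as Slug (chromosome 16, 14705859 to 14709385 on GRCm38, 3 exons), had lower values in the irradiated tumors than in Sham, a difference that did not pass the adjusted threshold. Sham tumors had 211, 255 and 206 CPM, and TGFbi tumors had 169.5, 231 and 204 CPM. The RT tumors had 154, 165 and 151 CPM, the TGFbi+RT tumors 136, 189 and 106 CPM, and the triple tumors 141, 89.8 and 167 CPM. All 9 irradiated tumors lay below the lowest Sham tumor, and TGFbi tumors overlapped both. Snai2 was the 1 of 10 members with every tumor below every Sham tumor in these groups. The share of all genes with that pattern was 6.28% for RT, 7.61% for TGFbi+RT and 7.15% for the triple group.

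The difference from Sham on the log2 scale was -0.52 ± 0.23 (SE) for RT (edgeR adjusted p = 0.999) and -0.64 ± 0.23 for TGFbi+RT (adjusted p = 0.243). The triple group differed by -0.76 ± 0.24 (edgeR adjusted p = 0.212). These contrasts share the Sham tumors. Averaged over both inhibitor states, irradiated tumors differed by -0.50 ± 0.17 (edgeR adjusted p = 0.782), and the 5-group test gave an adjusted p of 0.396. TGFbi alone differed from Sham by -0.15 (95% interval -0.66 to 0.35).

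Basal mammary markers, like Snai2, had lower group medians in the irradiated groups than in Sham. Their sums were 2661 to 2972 CPM in Sham and 2419 to 3727 CPM in TGFbi tumors, against 1998 to 2476 in RT, 1577 to 2665 in TGFbi+RT and 1483 to 2132 CPM in triple tumors. Triple replicate 2 and TGFbi+RT replicate 3, the lowest 2 tumors for Snai2, were also the lowest 2 for the basal sum. Other tumors departed from this. TGFbi replicate 1 had the highest basal sum, 3727 CPM, but at 169.5 CPM less Snai2 than any Sham tumor. Sham replicate 2 had the most Snai2, 255 CPM, with a basal sum of 2676 CPM. The part of the marker level in the Snai2 difference was not tested. In bulk tumor RNA, fewer cells of a type and less RNA per cell cannot be told apart.

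Without both tumors that stand apart, Snai2 still differed from Sham by -0.53 for RT, -0.47 for TGFbi+RT and -0.56 for the triple group (adjusted p = 0.820, 0.480 and 0.462). All Sham and TGFbi+RT tumors carry the code A2301, so the code does not differ between these groups. Their non-overlap in Snai2 within A2301 is the one given above, not a further check. Without the 2 libraries marked resub, of which TGFbi+RT replicate 3 has the lowest Snai2 of TGFbi+RT, the TGFbi+RT difference was -0.46 ± 0.25 (edgeR adjusted p = 0.767). For RT against Sham, the library code and the treatment can be separated only through the triple group, and with the code as a term the difference was -0.39 ± 0.44.

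Zeb2, a zinc finger repressor that is also expressed in macrophages and other leukocytes (chromosome 2, 44983634 to 45113279, 10 exons), had the widest range. Its level was 77.3, 11.8 and 19.5 CPM in Sham tumors, 55.3, 32.8 and 70.1 in TGFbi tumors and 119.9, 25.5 and 19.6 CPM in RT tumors. TGFbi+RT tumors had 67.6, 56.4 and 232 CPM and triple tumors 50.2, 293 and 121 CPM. The highest 2 values belonged to the 2 tumors that stand apart, and every group overlapped Sham. Triple tumors differed from Sham by 2.09 ± 0.91 on the log2 scale (edgeR adjusted p = 0.313). That value was 1.21 without triple replicate 2, 3.30 without Sham replicate 1 and 0.47 with the library code as a term, over an adjusted p of 0.137 to 1.0 in all 24 alternatives.

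Leukocyte markers moved with Zeb2. The 12 markers summed to 211 to 815 CPM in Sham, 433 to 1071 in TGFbi, 291 to 1804 in RT, 857 to 3432 in TGFbi+RT and 910 to 6291 CPM in triple tumors. Triple replicate 2 and TGFbi+RT replicate 3 had the highest 2 sums, as for Zeb2. Cd3e, which marks T cells, was at 0 in 3 of 15 tumors, and the other 11 markers had counts in all 15. Their part in the Zeb2 values was not tested.

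Snai1, Zeb1, Vim and Fn1 varied together with Zeb2 from tumor to tumor. For Snai1, a short-lived zinc finger repressor, Sham tumors had 9.43, 1.15 and 2.08 CPM, TGFbi tumors 4.05, 4.71 and 5.58 and RT tumors 15.8, 3.12 and 2.88 CPM. Its level in TGFbi+RT tumors was 5.21, 4.64 and 6.31 CPM and in triple tumors 2.73, 11.2 and 13.5 CPM. Snai1 was thus high in the first replicate of Sham and RT and in triple replicates 2 and 3, with a narrow range in TGFbi tumors.

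Zeb1, the second Zeb repressor, had 33.3, 5.90 and 7.39 CPM in Sham, 16.2, 10.4 and 15.4 in TGFbi and 28.4, 8.01 and 5.27 CPM in RT tumors. It had 11.5, 11.3 and 26.4 CPM in TGFbi+RT tumors and 11.5, 35.2 and 26.9 CPM in triple tumors. The same tumors were high as for Snai1, joined by TGFbi+RT replicate 3.

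Vim was at 496, 82.2 and 107 CPM in Sham, 144, 154 and 246 in TGFbi and 459, 119 and 92.0 CPM in RT tumors. TGFbi+RT tumors had 175, 173 and 574 CPM and triple tumors 146, 445 and 477 CPM. No tumor lay between 246 and 445 CPM. For Fn1 the Sham tumors had 3165, 497 and 601 CPM, the TGFbi tumors 936, 749 and 1080 and the RT tumors 2032, 614 and 608 CPM, while TGFbi+RT tumors had 1509, 809 and 2321 and triple tumors 731, 2568 and 2599 CPM. Sham replicate 1 therefore held the highest Fn1 level of all 15 tumors and Sham replicate 2 the lowest.

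**Figure D2:**
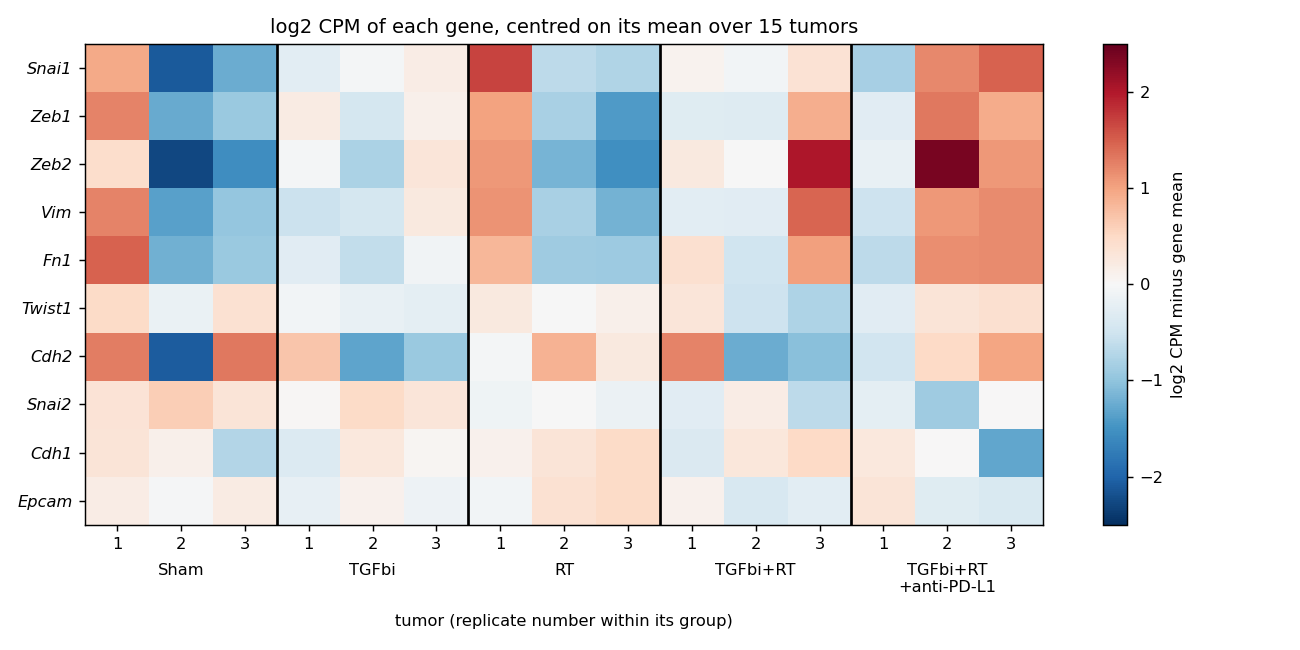
Log2 CPM of each gene (rows) in each tumor (columns, by group and replicate number) minus the gene's mean over 15 tumors, red above and blue below. Snai1, Zeb1, Zeb2, Vim and Fn1 are highest in the same 5 tumors: Sham replicate 1, RT replicate 1, TGFbi+RT replicate 3 and triple replicates 2 and 3.

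The 5 highest tumors were the same for all 5 of these genes: Sham replicate 1, RT replicate 1, TGFbi+RT replicate 3 and triple replicates 2 and 3. The share of all genes with the same 5 highest tumors was not computed. The fifth and sixth highest values were 445 and 246 CPM for Vim, 26.4 and 16.2 for Zeb1, 2032 and 1509 for Fn1, 77.3 and 70.1 for Zeb2 and 6.31 and 5.58 CPM for Snai1, so the step was wide for Vim and Zeb1 and narrow for Snai1 and Zeb2. The other members did not share this set: 3 of those 5 tumors were among the highest 5 for Twist1, 2 for Cdh1, 2 for Cdh2, 1 for Snai2 and 1 for Epcam.

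Markers of stromal cells were high in the same tumors. Fibroblast markers (12 genes, none at 0 in any tumor) summed to 4397 to 8950 CPM in these 5 tumors and 492 to 3664 CPM in the other 10. Endothelial markers (10 genes, none at 0) summed to 567 to 865 CPM against 228 to 428 CPM. Leukocyte sums overlapped, at 815 to 6291 against 211 to 1071 CPM, as did pericyte and smooth muscle sums, at 295 to 539 against 109.9 to 310.2 CPM, and adipocyte sums, at 75.9 to 304 against 8.50 to 304 CPM. Skeletal muscle markers summed to at most 3.75 CPM in any tumor. Schwann cell markers summed to 269 to 449 CPM, of which Sox10, also known in basal mammary epithelium, gave 186 to 380 CPM. The part of stromal cells in the shared pattern of Snai1, Zeb1, Zeb2, Vim and Fn1 was not tested.

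**Figure D3:**
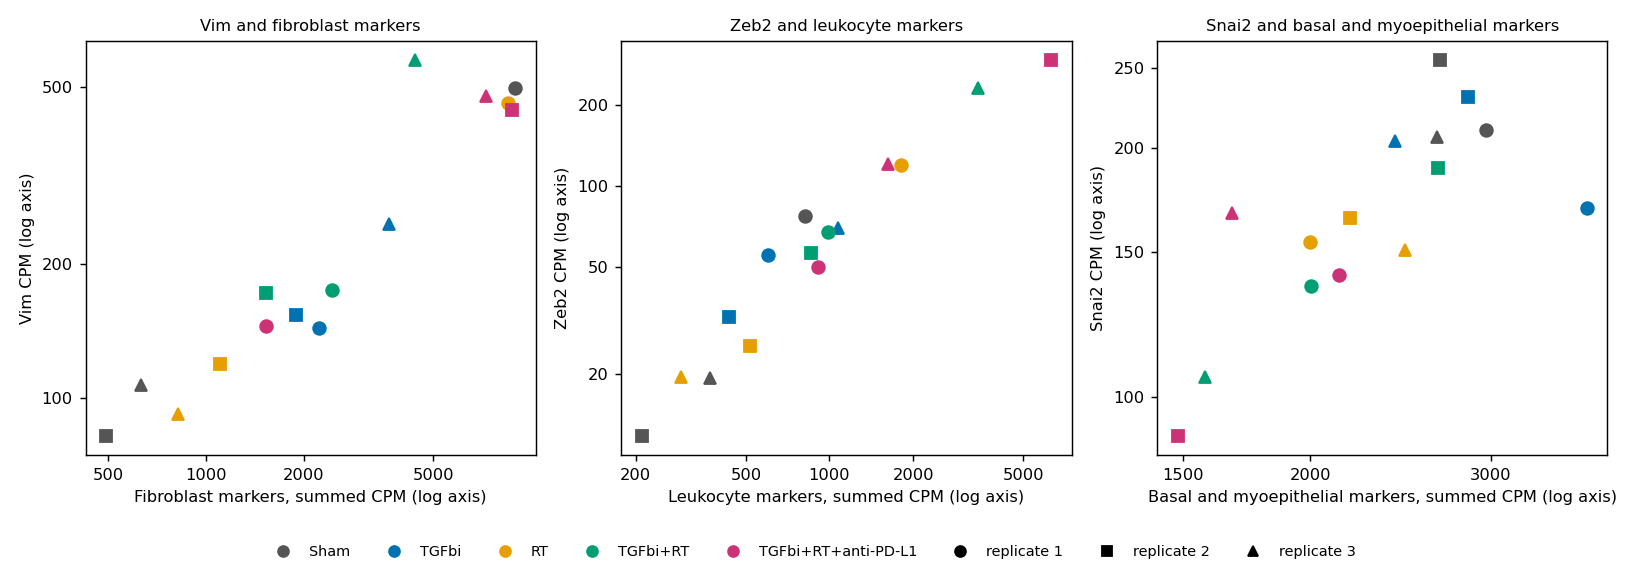
Vim against the summed CPM of 12 fibroblast markers, Zeb2 against 12 leukocyte markers and Snai2 against 8 basal markers, 1 point per tumor, colors for groups, shapes for replicates, all axes log. The 5 tumors with Vim from 445 to 574 CPM have fibroblast sums of 4397 to 8950 CPM, above the 492 to 3664 CPM of the other 10.

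Pairwise correlations of log2 CPM over the 15 tumors separated the members into blocks. Of 45 pairs, 12 passed an adjusted p of 0.05 by Spearman's rho and 12 by Pearson's r (permutation tests, Benjamini-Hochberg over the 45 pairs). The share of all gene pairs that would pass the same tests was not computed. Counts of passing pairs, here and in the block that follows, thus cannot be set against a background. All 10 pairs among Snai1, Zeb1, Zeb2, Vim and Fn1 passed by both, with r of 0.85 to 0.96 and rho of 0.85 to 0.94. The closest by r was Zeb1 with Vim, at r = 0.96 (permutation p = 1e-05, the smallest that 100000 resamples can give, adjusted p = 0.000113) and rho = 0.86 (permutation p = 5e-05, adjusted p = 0.00025). Its r was 0.95 without the 2 tumors farthest from the median. Here and below, those 2 tumors were chosen by 1 gene only, the gene of the pair that the opening paragraph lists earlier. Over the 10 tumors under 300 CPM of Vim, chosen after the data were seen, Zeb1 and Vim had r = 0.87, and over the 10 libraries of code A2301 r = 0.94. Snai1 with Zeb2, the loosest of the 10 by r, had r = 0.85 (permutation p = 1e-04, adjusted p = 0.00045) and rho = 0.92 (permutation p = 2e-05, adjusted p = 0.00015), and r = 0.81 without the 2 farthest tumors.

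Twist1, a basic helix-loop-helix factor, and Cdh2 formed a second pair, at r = 0.78 (permutation p = 0.00087, adjusted p = 0.00356) and rho = 0.81 (permutation p = 0.00045, adjusted p = 0.00184). The pair kept r = 0.77 without the 2 farthest tumors, 0.79 within A2301 and 0.80 for deviations from group means. Twist1 was at 15.8, 10.1 and 14.7 CPM in Sham, 10.7, 9.89 and 9.46 in TGFbi, 13.4, 11.2 and 12.4 in RT, 13.8, 7.87 and 6.57 in TGFbi+RT and 9.27, 14.2 and 14.9 CPM in triple tumors. Cdh2 was at 21.8, 2.13 and 22.4 CPM in Sham, 14.5, 3.59 and 4.69 in TGFbi, 8.67, 16.4 and 10.6 in RT, 21.1, 3.78 and 4.35 in TGFbi+RT and 6.40, 12.7 and 17.7 CPM in triple tumors. Both were low in Sham replicate 2, in replicates 2 and 3 of TGFbi and of TGFbi+RT, and in triple replicate 1. Every treated group overlapped Sham for both genes.

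Neither Twist1 nor Cdh2 passed with Vim, where rho was 0.13 and 0.11 (permutation p = 0.640 and 0.685, adjusted p = 0.758 and 0.762). Negative relations passed by one measure each. Zeb2 and Epcam had rho = -0.64 (permutation p = 0.0125, adjusted p = 0.0470) and r = -0.62 (permutation p = 0.0145, adjusted p = 0.0503), with r = -0.69 without the 2 farthest tumors but -0.35 within A2301. Snai2 and Zeb2 had r = -0.71 (permutation p = 0.0027, adjusted p = 0.0101) and rho = -0.51 (permutation p = 0.0574, adjusted p = 0.152). Their r was -0.41 without the 2 tumors farthest from the Snai2 median, so the relation by r leans on those tumors. It was -0.58 for deviations from group means and -0.77 within A2301, which still holds TGFbi+RT replicate 3, 1 of those 2 tumors.

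**Figure D4:**
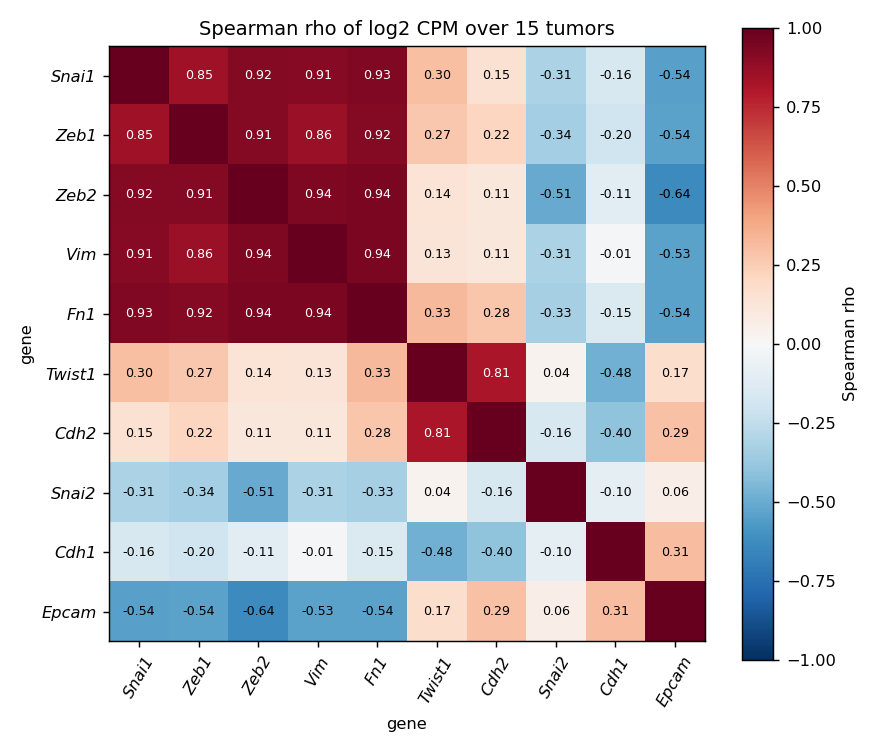
Spearman rho of log2 CPM over 15 tumors for each pair of the 10 genes, red for positive and blue for negative. Snai1, Zeb1, Zeb2, Vim and Fn1 form a block with rho of 0.85 to 0.94, Twist1 and Cdh2 a pair at 0.81, and Cdh1 with Vim is at -0.01.

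Cdh1, the E-cadherin gene that Snail and Zeb factors are known to repress (chromosome 8, 106603368 to 106670246, 16 exons), showed no correlation with the mesenchymal block that passed the test. It was at 94.9, 82.9 and 45.8 CPM in Sham, 59.8, 90.7 and 78.2 in TGFbi and 81.8, 95.4 and 105 CPM in RT tumors. TGFbi+RT tumors had 59.2, 92.1 and 107 CPM, and triple tumors had 91.0, 76.2 and 30.8 CPM. Of the 5 tumors with the most Vim, TGFbi+RT replicate 3 had the highest Cdh1 level of all 15 tumors and triple replicate 3 the lowest. Cdh1 and Vim had r = -0.09 (permutation p = 0.748, adjusted p = 0.813) and rho = -0.01 (permutation p = 0.975, adjusted p = 0.975). Their r was -0.37 without the 2 tumors farthest from the Vim median and 0.53 within A2301.

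Among the 5 factors, Twist1 had the most negative values with Cdh1, at r = -0.52 (permutation p = 0.0459, adjusted p = 0.129) and rho = -0.48 (permutation p = 0.0699, adjusted p = 0.175). Their r was -0.43 without the 2 farthest tumors, -0.61 within A2301 and -0.60 for deviations from group means. With the 4 factors of the Snail and Zeb families, Cdh1 had rho of -0.20 to -0.10 (permutation p = 0.479 to 0.736, adjusted p = 0.696 to 0.788). No pair of Cdh1 with a factor passed. The group differences of Cdh1 from Sham were small against their error, at 0.03 (95% interval -0.76 to 0.82) for TGFbi, 0.34 (-0.45 to 1.12) for RT, 0.21 (-0.58 to 0.99) for TGFbi+RT and -0.17 (-0.96 to 0.61) for the triple group on the log2 scale. The ratio of Cdh1 to Vim per length spanned 0.0268 in triple replicate 3 to 0.475 in RT replicate 3.

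Epcam, which encodes an epithelial adhesion protein (chromosome 17, 87635979 to 87651127, 10 exons), was the steadiest member. It was at 166, 143 and 168 CPM in Sham, 127, 157 and 134 in TGFbi and 140.1, 191 and 203 CPM in RT tumors, and at 157, 110.2 and 121 CPM in TGFbi+RT and 184, 119 and 112 CPM in triple tumors. The 2 highest values were RT tumors, and the groups overlapped. TGFbi+RT tumors differed from RT tumors by -0.46 ± 0.21 on the log2 scale (edgeR adjusted p = 0.505). The inhibitor average was -0.33 ± 0.15 (edgeR adjusted p = 0.331). With the library code as a term these were -1.13 and -0.66 (adjusted p = 0.426 and 0.319), and over all 24 alternatives the adjusted p was 0.334 to 0.931 and 0.215 to 0.660.

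**Figure D5:**
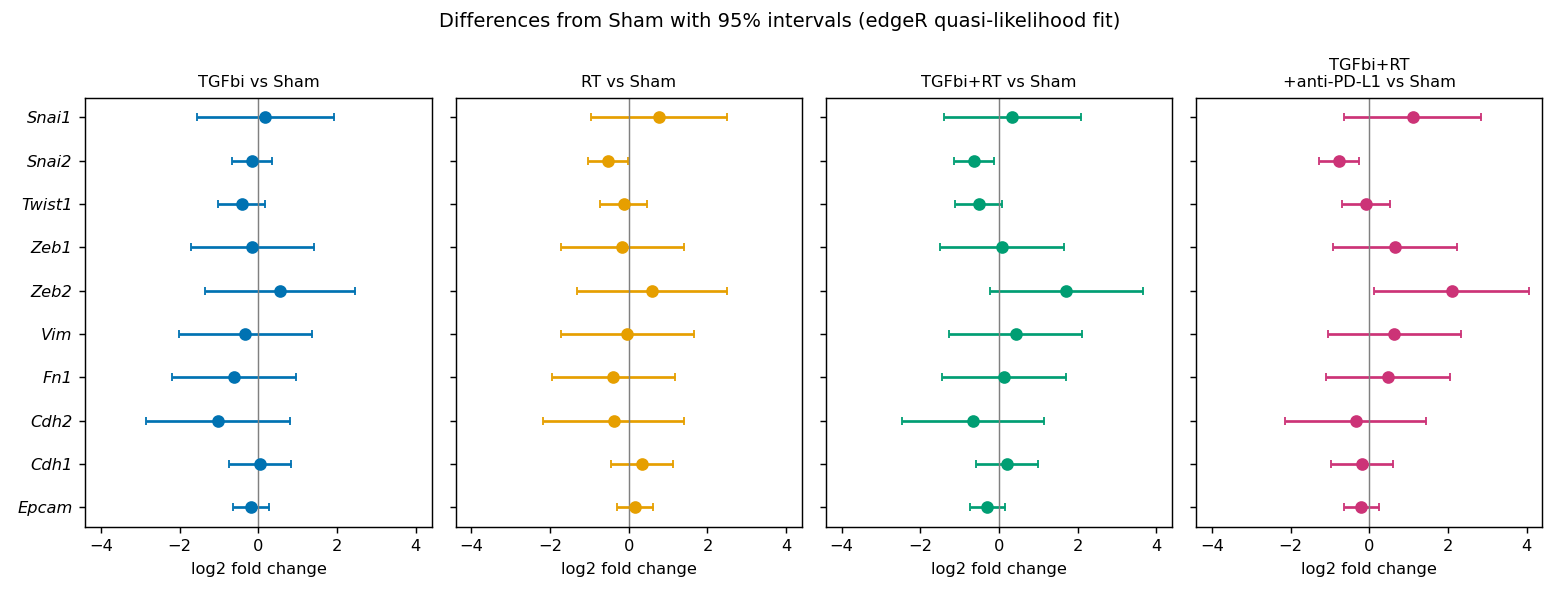
Log2 fold change of each gene against Sham with its 95% interval from the edgeR quasi-likelihood fit, 1 panel per treatment group. Intervals of Snai2 lie below 0 in RT, TGFbi+RT and triple tumors and that of Zeb2 lies above 0 in triple tumors, while none of the 10 genes passes after adjustment over all genes.

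For the mesenchymal genes the intervals were wide. Vim differed from Sham by -0.33 (95% interval -2.03 to 1.36) in TGFbi tumors and by 0.64 (-1.06 to 2.33) in triple tumors, and Fn1 by -0.62 (-2.20 to 0.95) and 0.47 (-1.10 to 2.04). With 3 tumors a group, each of these intervals includes differences in either direction. The interaction of inhibitor and radiation was 0.79 ± 1.11 for Vim and 1.14 ± 1.03 for Fn1 (edgeR adjusted p = 1.00 for both).

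Other genes of the pathway, grouped in 5 lists, were counted in the same way, and 0 of 104 list entries tested passed the adjusted threshold in any comparison. Under the inhibitor alone, mesenchymal lists were mostly below Sham: 17 of 21 adhesion, cytoskeleton and receptor genes (median log2 difference -0.27), 21 of 25 matrix genes (-0.42) and 11 of 15 other transition factors (-0.20), against a median of -0.01 over all genes. Epithelial lists were below Sham as well, with 20 of 29 junction genes (-0.21) and 11 of 14 regulators that maintain the epithelial state (-0.36). Of the members, 7 of 10 were below Sham, with a median of -0.17. At an unadjusted p under 0.05, 4 adhesion genes, 1 matrix gene and 3 factors were lower and none higher (background 4.99% lower, 3.5% higher). Of the epithelial lists, 2 junction genes were lower and 1 higher, and 1 regulator was lower and 2 higher. Sham replicate 1 had a fibroblast marker sum of 8950 CPM, against 492 and 631 CPM in the other Sham tumors. TGFbi tumors had 1898 to 3664 CPM. The part of Sham replicate 1 in the list directions was not tested.

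In triple tumors the matrix list lay on the other side of Sham, with 19 of 25 genes above it and a median of 0.49, and 12 of 21 adhesion genes were above it (median 0.09). Markers of other cell types lay on the same side: 11 of 12 fibroblast markers (median 1.42), some of which are also in the matrix list, and 12 of 12 leukocyte markers (median 2.46) were above Sham, and their part in the matrix values was not tested.

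For the inhibitor average, 8 of 29 junction genes were lower and 1 higher at an unadjusted p under 0.05 (background 6.87% and 7.47%). The one that was higher was Itgb4, the integrin subunit of hemidesmosomes, at 72.8 ± 6.01 CPM in Sham, 109 ± 21.2 in TGFbi, 69.5 ± 7.26 in RT and 104.5 ± 24.1 CPM in TGFbi+RT tumors (SD, n = 3 each), a log2 difference of 0.58 ± 0.15 (edgeR adjusted p = 0.140). Triple tumors, which also received the inhibitor but did not enter this average, had 71.6 ± 18.9 CPM of Itgb4, near the Sham level. In this average all RT tumors carry the code A2304, and Sham, TGFbi and TGFbi+RT tumors carry A2301. Code and inhibitor are thus partly confounded in it. TGFbi against Sham, both of A2301, had 2 junction genes lower and 1 higher (background 4.99% and 3.5%). TGFbi+RT against RT had 4 lower and 2 higher (background 9.62% in either direction).

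St14, a membrane protease of epithelia, went the other way in the inhibitor average, at 130.1 ± 7.88 CPM in Sham, 97.7 ± 1.29 in TGFbi, 154 ± 22.9 in RT and 96.5 ± 7.95 CPM in TGFbi+RT tumors, a difference of -0.54 ± 0.15 (edgeR adjusted p = 0.150). In triple tumors St14 was at 110.7 ± 41.8 CPM. Acta2, smooth muscle actin, was at 421 ± 192 CPM in Sham and 151 ± 37.4 CPM in TGFbi tumors, a log2 difference of -1.48 ± 0.43 (edgeR adjusted p = 0.378), while TGFbi+RT tumors had 347 ± 183 CPM. Tbx3, a T-box repressor, was at 63.9 ± 26.7 CPM in Sham and 31.0 ± 5.39 CPM in TGFbi tumors, a difference of -1.05 ± 0.28 (edgeR adjusted p = 0.329). The Sham tumors had 93.95, 43.1 and 54.6 CPM of Tbx3. Its mean was also below Sham in RT (43.25 ± 5.84 CPM), TGFbi+RT (32.3 ± 6.58 CPM) and triple tumors (38.7 ± 9.50 CPM). The gene Tgfbi, which encodes a TGF beta induced matrix protein, was at 9.61 ± 6.61 CPM in Sham and 53.1 ± 31.6 CPM in triple tumors, a difference of 2.46 ± 0.70 (edgeR adjusted p = 0.196). Its mean was also above Sham in TGFbi (18.8 CPM), RT (25.05 CPM) and TGFbi+RT tumors (43.4 CPM). TGFbi+RT tumors differed from Sham by 2.17 ± 0.70 (edgeR adjusted p = 0.211), and triple from TGFbi+RT tumors by 0.29 ± 0.66. The highest levels of this gene, 88.5 and 69.6 CPM, were in triple replicate 2 and TGFbi+RT replicate 3, the tumors that stand apart.

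Of the regulators that maintain the epithelial state, the splicing factor gene Esrp2 was at 15.5 ± 1.81 CPM in Sham, 22.5 ± 0.764 in TGFbi, 23.9 ± 7.14 in RT, 20.9 ± 2.61 in TGFbi+RT and 16.6 ± 2.81 CPM in triple tumors. It differed from Sham by 0.54 ± 0.21 in TGFbi and 0.62 ± 0.21 in RT tumors (edgeR adjusted p = 0.506 and 0.999). Foxa1, a luminal pioneer factor, had 0 counts in all 3 Sham tumors and 12.8, 0.239 and 0 CPM in TGFbi, 0.312, 0.271 and 0.492 in RT, 3.20, 0.708 and 16.0 in TGFbi+RT and 5.60, 4.36 and 0.169 CPM in triple tumors (5-group adjusted p = 0.439 by edgeR).

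The factor gene Sox4 was at 174 ± 73.0 CPM in Sham and 107 ± 16.5 CPM in TGFbi tumors, and differed by -0.66 ± 0.22 in the inhibitor average (edgeR adjusted p = 0.207). Tropomyosin gene Tpm1 was at 316 ± 14.7 CPM in Sham and 233 ± 15.9 CPM in TGFbi tumors, a log2 difference of -0.44 ± 0.16 (edgeR adjusted p = 0.456).

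Genes whose level followed a member most closely were ranked by Spearman's rho over the 15 tumors among 12912 genes, as a description. Snai1 was nearest to Mfap5 (rho = 0.98), Col15a1 and Rian, Zeb1 to the receptor gene Calcrl (0.99), Dlc1 and Lrrc32, and Fn1 to Vgll3 (0.98) and to Nid1 and Col5a2, genes of basement membrane and collagen fibrils. Among the genes near Zeb2 were Tent5a (0.99) and the lysosomal protease gene Lgmn. Vim was nearest to Fam78b (0.98), Timp1 and Capg. The neighbours of Twist1 were Arhgef40 (0.90), Dact3 and Prickle1, and those of Cdh2 were Fbn2 (0.85), Rab36 and Cnn1. Cdh1 was nearest to Crb3, an apical polarity gene (0.89), followed by Zxdb and Zxda, and Epcam to Lsr, a tricellular junction gene (0.89), 4931406C07Rik and Marcksl1. Snai2 stood apart from both sets, with Grhpr (0.93), Cryz and Eef2kmt.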

How the data were processed

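The deposited table holds raw counts of read fragments per gene and library for the genome build GRCm38, per the file headers and the submitters' processing notes. Its column names mention Subread. Aligner settings, annotation release and strand setting are not given in the sources used here, so reads from a gene and an antisense partner cannot be told apart. Libraries were depleted of ribosomal RNA, per the labels' protocols. The deposited annotation table gave exon lengths, and 25275 of 27179 gene identifiers matched a symbol. Identifiers without a symbol took 7.86% to 13.8% of a tumor's counts.

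Counts were analysed in R 4.3.3. The default filter of edgeR 4.0.16 left 16017 genes, TMM factors were 0.919 to 1.05, and a quasi-likelihood model of all 15 tumors estimated each group's mean (10 residual degrees of freedom). Adjustment was by Benjamini-Hochberg over all genes, with a threshold of 0.05. A standard error is the log2 fold change divided by the square root of its F statistic. Correlations were taken on log2 CPM (prior count 2) with 100000 permutations (scipy 1.17.1). Alternatives were DESeq2 1.42.0, limma-voom (limma 3.58.1), other scaling and filters, a replicate block, the library code and left-out tumors. The scripts were tested on simulated data. The members, lists and comparisons were chosen with earlier results of these data known. All members are named. Fold changes are given where the unadjusted p was under 0.05, with intervals for some others, and of each pathway list the 2 genes with the smallest p in the 5-group test are named. Some genes that these rules also named are not reported here. The reference library, with 9003730 counts, entered no comparison.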

Additional observations from a re-analysis of the deposited data

Results flagged for a closer look

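The internal reference library, labelled as mammary carcinoma with a Trp53 null genotype and otherwise not described, was used in no comparison. Values are CPM on its own total, without TMM scaling, from 1 library, without replicates. For 7 members it lay above the highest Sham tumor: Snai1 at 157.8, Twist1 at 52.8, Zeb1 at 187, Zeb2 at 213, Vim at 1061, Cdh2 at 56.3 and Fn1 at 10050. These 7 are the mesenchymal genes and 4 of the 5 factors. The remaining factor, Snai2, was at 9.66 (87 counts), below all 15 tumors. Among epithelial genes Cdh1 was at 2.00 (18 counts) and Epcam had 0 counts, which allows up to 0.333 CPM by counting error. Krt5 also had 0 counts, Krt14 was at 66.8 and Krt8 at 67.2. Fibroblast markers summed to 6311 and leukocyte markers to 2924, both within the range of the tumors, and basal markers summed to 265, below all 15 tumors. What the library was made from was not tested.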

How the results depend on the processing

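Counts of called members were recomputed 263 times, with other tools, scaling, filters, sample sets and left-out tumors, and 0 of 10 members passed each time. Of 168 recomputed fold changes of Snai2, Zeb2 and Epcam, 0 changed sign and 0 passed. The smallest adjusted p among them was 0.0586, for Snai2 in triple against Sham tumors by DESeq2. The number of correlated pairs was 11 to 16 by rho and 11 to 20 by r when 1 tumor was left out, with 20 without Sham replicate 1. It was 8 by rho and 12 by r within A2301, and 8 and 9 over the 10 tumors under 300 CPM of Vim. With a replicate block, 0 members were called, and Snai2 in triple tumors differed by -0.74 (adjusted p = 0.312). The replicate numbers did not pair the tumors: same-numbered tumors of different groups correlated at a mean of -0.03, and 5 of 15 correlated best with their own number. Snai1 had 14 to 253 counts per tumor and Cdh2 26 to 365, so counting error weighs most on these genes.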
